A study of Mus musculus with 12 samples.

Results

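The Hox genes are the homeobox transcription factors that lie in 4 clusters and mark position along the body axis. They were taken here as every row of the count table whose mouse symbol is Hoxa, Hoxb, Hoxc or Hoxd followed by a paralogue number. The mouse annotation (GENCODE M21, genome build GRCm38) holds 39 such genes, of which 27 have a row among the 19049 rows of the table. The Hoxa cluster at chr6:52155590-52260880 contributed 9 of its 11 genes, the Hoxb cluster at chr11:96194316-96368256 9 of 10, the Hoxd cluster at chr2:74668310-74765142 7 of 9, and the Hoxc cluster at chr15:102921103-103036852 2 of 9. The others are not analysed here.

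The study sorted colonic stroma from C57BL/6J mice by removing cells that stain for EPCAM (epithelium), CD31 (endothelium), CD45 (leukocytes) or TER119 (erythroid cells), and sequenced polyadenylated RNA. The normal adult group came from normal colon at 8 weeks of age, the P14 group from developing colon at postnatal day 14, and the tumour group from colonic tumours of mice given azoxymethane and dextran sulfate sodium (AOM/DSS, a carcinogen followed by a colitis-inducing agent) at 12 to 14 weeks. Each group has 4 libraries, and the design names 4 mice per group. Age differs between all 3 groups, and the tumour group alone received the agents. No label gives the stretch of colon from which a library came, so a gene's level here cannot be placed along the colon.

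Hox proteins bind DNA through a homeodomain, often beside cofactors of the TALE class (Pbx, Meis and Pknox). The order of the genes along a cluster matches the order in which they are used along the embryo: low paralogue numbers act towards the head and numbers 9 to 13 towards the tail. Fibroblasts of adult organs keep much of the Hox pattern of the region they formed in, and in the hindgut the genes of paralogue groups 9 to 13 are known to pattern the mesenchyme. Hoxb13, the gene at the tailward end of its cluster, is also known from epithelium of the distal colon and the prostate.

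RefSeq gives a promoter window (300 bases of GRCm38.p6, from 250 before to 50 after a start site) for 18 of the 27 members, in 20 windows. Hoxb2, Hoxb3, Hoxb5, Hoxb6, Hoxb7, Hoxb9, Hoxb13, Hoxc6 and Hoxc11 have no window. The 5 windows below are shown because they belong to members of the same cluster that differed between the groups in opposite directions, Hoxa7 against Hoxa10 and Hoxa11, and Hoxd8 against Hoxd13. They are read on the strand of the gene, and capitals mark each CG dinucleotide. Their places are chr6:52218524-52218823, chr6:52234890-52235189 (one of the gene's 2 windows) and chr6:52245761-52246060 on the minus strand, and chr2:74704365-74704664 and chr2:74667975-74668274 on the plus strand.
Hoxa7: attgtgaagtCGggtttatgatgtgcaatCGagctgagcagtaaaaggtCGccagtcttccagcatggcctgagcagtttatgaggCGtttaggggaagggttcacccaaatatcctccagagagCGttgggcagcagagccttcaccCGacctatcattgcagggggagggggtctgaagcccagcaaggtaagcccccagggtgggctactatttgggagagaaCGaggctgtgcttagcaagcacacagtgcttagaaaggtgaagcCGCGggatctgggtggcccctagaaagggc
Hoxa10: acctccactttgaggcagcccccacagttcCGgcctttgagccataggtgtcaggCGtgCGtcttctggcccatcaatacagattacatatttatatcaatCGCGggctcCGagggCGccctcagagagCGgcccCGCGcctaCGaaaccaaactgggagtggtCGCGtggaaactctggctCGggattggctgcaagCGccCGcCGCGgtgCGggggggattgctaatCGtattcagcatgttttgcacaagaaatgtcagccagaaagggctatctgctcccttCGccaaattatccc
Hoxa11: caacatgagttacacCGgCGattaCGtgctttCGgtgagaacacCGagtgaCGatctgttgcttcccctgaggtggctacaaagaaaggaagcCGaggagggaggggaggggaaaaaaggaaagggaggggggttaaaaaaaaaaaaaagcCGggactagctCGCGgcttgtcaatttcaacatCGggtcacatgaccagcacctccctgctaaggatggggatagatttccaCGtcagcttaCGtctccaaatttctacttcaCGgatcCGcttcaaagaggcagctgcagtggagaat
Hoxd8: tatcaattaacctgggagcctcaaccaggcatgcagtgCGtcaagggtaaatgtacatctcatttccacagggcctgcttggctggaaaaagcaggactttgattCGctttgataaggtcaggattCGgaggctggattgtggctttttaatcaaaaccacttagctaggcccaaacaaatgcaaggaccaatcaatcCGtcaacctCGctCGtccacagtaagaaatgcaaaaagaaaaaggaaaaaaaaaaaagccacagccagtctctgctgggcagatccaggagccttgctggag
Hoxd13: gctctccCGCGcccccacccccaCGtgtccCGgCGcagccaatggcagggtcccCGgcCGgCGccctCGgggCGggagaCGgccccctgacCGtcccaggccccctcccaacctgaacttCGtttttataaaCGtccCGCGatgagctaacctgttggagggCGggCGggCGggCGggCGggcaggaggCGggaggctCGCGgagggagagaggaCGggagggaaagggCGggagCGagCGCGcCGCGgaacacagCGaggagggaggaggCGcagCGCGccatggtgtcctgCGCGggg
These windows hold 9 CG dinucleotides at Hoxa7, 21 at Hoxa10, 15 at Hoxa11, 6 at Hoxd8 and 37 at Hoxd13. The other Hoxa10 window, not printed, holds 12. Over the 20 windows of the members the median was 14.5 CG dinucleotides and 56.5% G and C, against 7 and 52.67% over all 32851 promoter windows in the table. Hoxa10, Hoxa11 and Hoxd8, lower in tumours than at P14, thus range from few to many CG dinucleotides, as do Hoxa7 and Hoxd13, which were higher. The TATA motif TATAAA, searched on both strands, was in 20% of the members' windows and 13.62% of all windows, with 2 matches at Hoxd13 and 1 in the Hoxa10 window printed. The caudal motif TTTATNG was in 10% of the members' windows and 10.91% of all windows, the Pbx-Hox motif TGATNNAT in 15% and 8.846%, and the CCAAT box in 55% and 37.41%. None of the 5 windows printed holds TTTATNG or TGATNNAT, which says only that those letters are not in these windows.

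The libraries held 15449444 to 38799033 counts. Tumour replicate 8 stood apart, with the lowest total and 9.14% of all genes at a count of 0, against at most 1.4% in each other library. The summed CPM (counts scaled to the library's size) of 8 fibroblast markers was high in every library but moved with the groups, at 29277.6 to 37357.4 in normal adult, 72332.4 to 95201.5 at P14 and 11397.6 to 32038 in tumours. Of these 8 genes 3 were higher at P14 than in normal adult and 3 lower in tumours than at P14, while Pdgfra, a receptor of colonic fibroblasts, did not pass the test in any comparison. Other stromal cells, which the sort does not remove, moved too: 8 smooth muscle markers summed to 3902 to 7862 CPM at P14 and at most 2097 elsewhere, and of 7 pericyte markers 6 were higher at P14 and 7 in tumours than in normal adult. Transcripts of cells that the sort should remove were present. The summed CPM of 11 epithelial markers, none at 0 in any library, ran from 5058 to 10750.8 in normal adult, 299.1 to 2033 at P14 and 1111 to 4233 in tumours. For 8 squamous epithelial markers it was 5086 to 15105.7 in tumours and at most 495.2 elsewhere. Of the other removed types, endothelial markers summed to at most 325.7 CPM, leukocyte markers to at most 79.3 and erythroid markers to at most 47.06, and at P14 4 of 6 leukocyte and 5 of 5 erythroid markers were lower, as were 3 of 6 endothelial markers in tumours against normal adult. B and plasma cells, leukocytes with a list of their own, had 3 markers that summed to 82.23 to 470.8 CPM in normal adult. Their sum was 0.3715 to 9.365 at P14, with 2 of 3 markers lower, and 4.8 to 311 in tumours. The part of these last cell types in the Hox values was not tested. The design gives 2 males and 2 females per group, but Ddx3y, a Y-linked gene, had more counts than Xist in 2 normal adult, 2 P14 and 0 tumour libraries. With the 4 libraries of the first kind left out (a setting added after the data were seen), all 24 Hox fold changes called below kept their sign and 3 kept their call, in a fit of 8 libraries. Over all genes that fit called only 18 higher and 5 lower at P14 against normal adult. These being bulk samples, fewer cells of a type and less RNA per cell cannot be told apart.

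Levels are given in CPM, scaled by TMM factors, with the 4 libraries of a group in the order of their replicate numbers (2, 3, 5 and 6 for normal adult, 1 to 4 for P14, 1, 2, 6 and 8 for tumours). Levels are compared between genes only as CPM per kb of exon. Differences are log2 fold changes from edgeR's quasi-likelihood test across 18727 genes, with Benjamini-Hochberg adjusted p-values, and a gene is said to have risen or fallen where the adjusted p was under 0.05. Of the 27 members 26 were tested: Hoxb8, a middle gene of the Hoxb cluster, was removed by the filter on low counts, with 4 to 16 counts in 11 libraries and 0 in tumour replicate 8.

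The normal adult libraries carried a tailward Hox pattern. Per kb, Hoxb13 led at 36.5 ± 18.6 CPM per kb (SD, n = 4), followed by Hoxa10 at 9.09 ± 0.3704, Hoxa13 at 7.73 ± 0.8501 and Hoxd13 at 6.36 ± 1.18. The libraries' values of neighbours among those 3 overlapped, and all were below Hoxb13. Hoxb13 is also known from epithelium, and these libraries held 5058 to 10750.8 CPM of epithelial markers. Per 1000 CPM of these there were 8.6 to 12.52 CPM of Hoxb13. The part of epithelial transcripts in its rank was not tested. At P14 the order was Hoxa10 (13.2 ± 1.89), Hoxd8 (11.3 ± 1.27), Hoxa13 (9.95 ± 0.879) and Hoxa11 (7.79 ± 0.341), of which Hoxa11 alone did not overlap its neighbour in that order. In tumours Hoxb13 led again (18.5 ± 5.096), ahead of Hoxd13 (9.69 ± 2.23), Hoxa10 (6.13 ± 1.52) and Hoxa13 (5.71 ± 1.95), each overlapping the next. The lowest members were Hoxb8 in all 3 groups, at 0.17 ± 0.0528, 0.059 ± 0.0116 and 0.0715 ± 0.0487 CPM per kb.

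**Figure D1:**
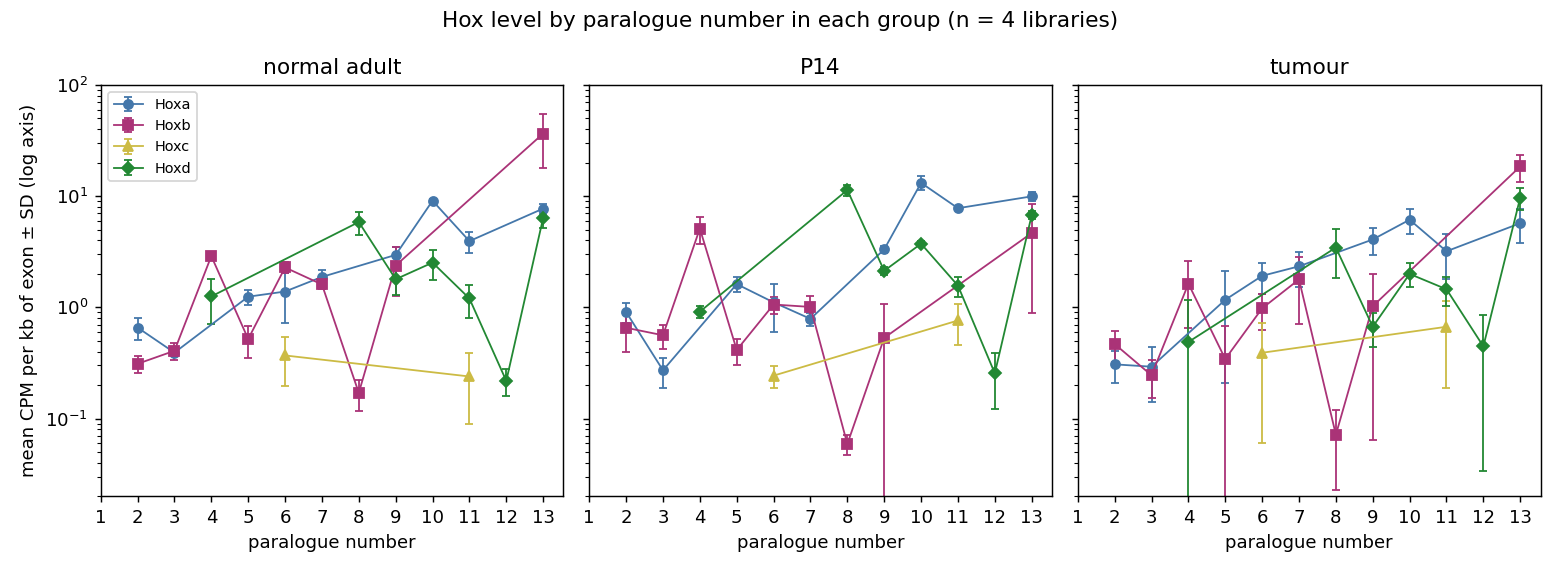
Mean CPM per kb of exon (log axis) against paralogue number in each group, with SD bars over 4 libraries; lines join the members of a cluster that have a row, and bars that pass the lower edge reach below 0.02. Hoxb13 leads in normal adult and tumour and is low at P14, where Hoxa10 and Hoxd8 lead with overlapping SDs.

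Genes numbered 9 to 13 made up 77.23% ± 5.291 (SD, n = 4) of the summed Hox CPM per kb in normal adult, 67.73% ± 2.64 at P14 and 76.59% ± 5.996 in tumours. The share of Hoxb13 alone shifted by more than that of the whole class, at 36.29% ± 11.06 in normal adult, 5.686% ± 4.433 at P14 and 26.25% ± 3.34 in tumours. The other genes numbered 9 to 13 together thus held a larger share at P14 than in normal adult. Shares add up to 100%, however, so a smaller share of Hoxb13 raises those of other members even where their levels stay the same. All members but Hoxb13 held 63.71% ± 11.06 in normal adult, 94.31% ± 4.433 at P14 and 73.75% ± 3.34 in tumours. The cluster shares that follow have the same limit. The Hoxa cluster held 31.24% ± 5.23, 48.31% ± 1.782 and 36.1% ± 2.5 in the same order, and the Hoxd cluster 20.68% ± 5.131, 33.15% ± 2.377 and 26.64% ± 4.23. Its 2 members with a row gave the Hoxc cluster 0.6572%, 1.258% and 1.531%. Leaving out Hoxb13, the summed CPM of the members was 162.9 ± 8.675 in normal adult, 208.8 ± 13.03 at P14 and 142 ± 19.42 in tumours, so the P14 libraries (200.1 to 227.7) lay above all others (121.1 to 168.8). These shares and sums are descriptions and were not tested.

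**Figure D2:**
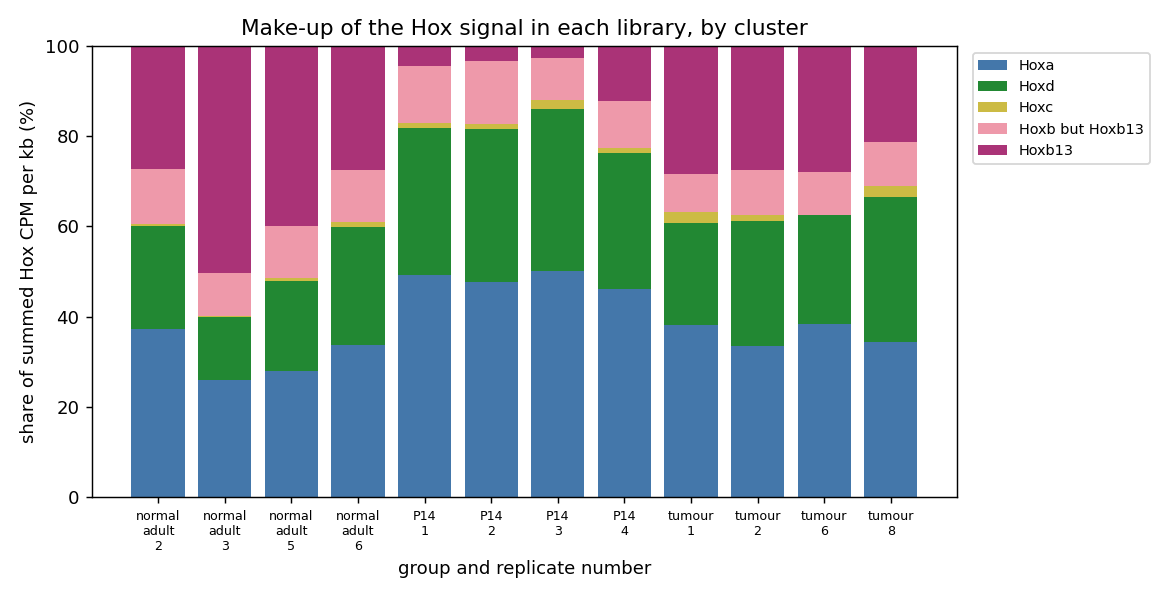
Share of the summed Hox CPM per kb in each library, as stacked bars, by cluster and with Hoxb13 drawn apart from the rest of Hoxb. Hoxb13 holds 2.599% to 12.23% in the P14 libraries, 27.33% to 50.29% in normal adult and 21.28% to 28.44% in tumours.

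The first comparison, P14 against normal adult, asks how stroma of the developing colon differs from that of the grown colon. At P14 Hoxa10, Hoxa11, Hoxb2 and Hoxd8 were higher and Hoxa7, Hoxb6 and Hoxb13 lower, while 19 of 26 tested members did not pass the test. The 4 higher members are 15.4% of those tested, beside 14.9% of all genes called higher, and the 3 lower ones are 11.5%, beside 16% of all genes. Both shares are near that background, so the number of Hox genes called is no result in itself. The median log2 fold change of the members was 0.24, against -0.0019 over all genes.

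Hoxb13 was the member with the largest fall. Its CPM was 45.8, 135, 90.3 and 51.7 in normal adult and 7.83, 6.38, 4.32 and 22.6 at P14. Every P14 library was below every normal adult library, and P14 replicate 4 was the highest of its group. The log2 fold change was -2.97 (SE 0.51, adjusted p = 0.0015), and it ran from -3.70 to -2.60 as each of the 12 libraries was left out in turn, with the call kept each time.

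The epithelial marker sum was lower in the same libraries. It was 5323, 10750.8, 9620 and 5058 CPM in normal adult and 456.4, 469.1, 299.1 and 2033 at P14, and Epcam itself, the surface protein used for the sort, fell by 3.18 on the log2 scale (adjusted p = 0.0023). For every 1000 CPM of epithelial markers there were 8.6 to 12.52 CPM of Hoxb13 in normal adult, 11.09 to 17.16 at P14 and 9.118 to 41.39 in tumours, so this ratio was not lower at P14. For every 1000 CPM of Pdgfra there were 85.82 ± 56.59 CPM of Hoxb13 in normal adult and 11.71 ± 10.5 at P14. With the log2 of the epithelial sum as a covariate, a setting added after the data were seen, the Hoxb13 log2 fold change was -0.98 (adjusted p = 0.68). The sum itself does not overlap between these groups, so in that fit the epithelial level and the age cannot be told apart. Of all 18727 genes the same fit called only 17 higher and 21 lower at P14.

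**Figure D3:**
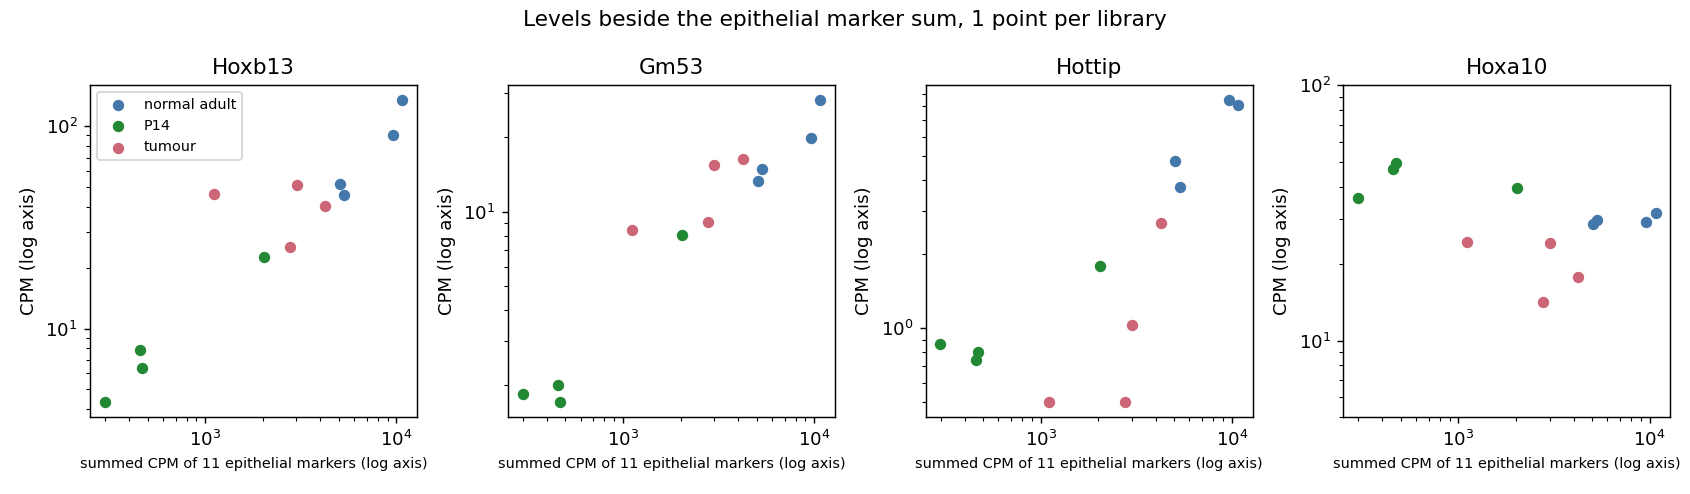
CPM of Hoxb13, its cluster neighbour Gm53, the noncoding RNA Hottip and, for contrast, Hoxa10 against the summed CPM of 11 epithelial markers, 1 point per library, both axes log. The 3 P14 libraries with the smallest epithelial sums, 299.1 to 469.1, have the lowest Hoxb13, and the P14 library at 2033 lies nearest to the tumours, whereas Hoxa10 is highest in P14 libraries.

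Elsewhere in the Hoxb cluster the sign of the fold change differed between the ends, with Hoxb2 the only headward member called. At the tailward end, Hoxb9 was 4.196, 9.73, 6.99 and 3.54 CPM in normal adult and 0.742, 0.6501, 0.588 and 3.49 at P14. All P14 libraries lay below normal adult, with replicate 4 close to the lowest adult, and the log2 fold change of -2.15 (SE 0.89, adjusted p = 0.083) did not pass the test. It passed without P14 replicate 4 (-3.20, adjusted p = 0.024) and without tumour replicate 8 (-2.15, adjusted p = 0.022), as it did with DESeq2 (adjusted p = 0.038). Hoxb8, untested in the main fit, was 0.2563 to 0.5768 CPM in normal adult and 0.1238 to 0.1923 at P14, and without tumour replicate 8, where it passed the filter, it was called lower (-1.49, adjusted p = 0.0096), whereas it was not with no filter (adjusted p = 0.073), with DESeq2 (0.051) or with any other single library left out that let it pass the filter (0.056 to 0.15). Hoxb6, which acts in the trunk, was 3.84, 4.57, 5.05 and 4.46 CPM in normal adult and 2.33, 2.29, 1.55 and 2.15 at P14, lower in every library, with a log2 fold change of -1.10 (SE 0.29, adjusted p = 0.012).

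At the headward end Hoxb2, a hindbrain patterning gene, was 1.06, 1.25, 0.829 and 1.19 CPM in normal adult and 2.77, 3.31, 1.62 and 1.42 at P14. The groups did not overlap, P14 replicates 1 and 2 being the highest, and Hoxb2 rose by 1.07 (SE 0.35, adjusted p = 0.036), a call that 6 of 12 left-out libraries ended, the highest adjusted p being 0.13 without P14 replicate 2. Its neighbour Hoxb4 was 7.34, 6.67, 7.61 and 8.04 CPM in normal adult and 14.6, 17.6, 10.1 and 10.1 at P14, without overlap, but at 0.82 (SE 0.45, adjusted p = 0.19) it did not pass the test, and it did without tumour replicate 8 (0.82, adjusted p = 0.010). Over the tested genes Hoxb2 to Hoxb4 the median log2 fold change was 0.82 and over Hoxb5 to Hoxb13 it was -1.10. That cut was not planned and falls where the sign changes, so the opposite medians are no separate result. For the planned classes, over all clusters, the median was -0.32 for paralogues 1 to 8 and 0.31 for paralogues 9 to 13. Of the exon bases of Hoxb3 52.93%, and of Hoxb2 27.32%, are shared with the antisense RNA Hoxb3os, and no source used here says how the counting treated strand, so the values of Hoxb2 and Hoxb3 are uncertain.

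In the Hoxa cluster Hoxa7 was lower at P14 and Hoxa10 and Hoxa11 were higher. Headward of Hoxa7 the members went both ways, with log2 fold changes of 0.46 for Hoxa2, -0.53 for Hoxa3, 0.37 for Hoxa5 and -0.32 for Hoxa6, none called. Hoxa7, a trunk gene, was 4.84, 6.56, 5.44 and 4.74 CPM in normal adult and 2.23, 1.95, 2.18 and 2.71 at P14, lower in all 4 libraries, with a log2 fold change of -1.25 (SE 0.26, adjusted p = 0.0039). Of the exon bases of Hoxa7 20.38% are shared with the antisense gene Hoxaas3, and of those of Hoxa3 25.42% with antisense genes, so both are uncertain in the same way as Hoxb2. Hoxa9 was 12.4, 18.6, 17.8 and 17.3 and 18.9, 20.03, 17.4 and 17.8 CPM, groups that overlap, at 0.16 (SE 0.20, adjusted p = 0.57). Hoxa10, known for its part in the reproductive tract and hindlimb, was 29.6, 31.4, 29.2 and 28.7 CPM in normal adult and 46.96, 49.4, 36.1 and 39.6 at P14.

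All 4 P14 libraries exceeded the adults, replicates 1 and 2 by most. Hoxa10 rose by 0.53 (SE 0.18, adjusted p = 0.036), and 6 of 12 left-out libraries ended the call, each normal adult library and P14 replicates 1 and 2, as did scaling by library totals alone. Hoxa11, a limb and uterine gene, was 11.9, 7.63, 8.22 and 8.25 CPM in normal adult and 18.6, 17.5, 18.3 and 16.9 at P14, the P14 values lying close together and above all adults. It rose by 0.98 (SE 0.26, adjusted p = 0.014), with the call kept in all 12 left-out fits. Hoxa11 shares 34.98% of its exon bases with the antisense gene Hoxa11os, whose own CPM was 7.72, 8.22, 8.18 and 7.701 in normal adult and 7.36, 7.68, 6.53 and 6.78 at P14, a log2 fold change of -0.17 that did not pass the test. Hoxa13, a hindgut and digit gene, was 18.1, 21.8, 19.6 and 16.9 and 21.7, 24.1, 26.6 and 25.9 CPM and at 0.36 (SE 0.23, adjusted p = 0.25) did not pass.

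Within the Hoxd cluster only Hoxd8 passed the test among 7. Its CPM was 14.99, 11.2, 19.1 and 18.8 in normal adult and 29.5, 36.4, 29.1 and 29.6 at P14, higher in every P14 library and highest in replicate 2. Hoxd8 rose by 0.96 (SE 0.31, adjusted p = 0.034), and leaving out any P14 library or normal adult replicate 2, 3 or 5 ended the call (adjusted p up to 0.099). Beyond it Hoxd9, Hoxd10, Hoxd11, Hoxd12 and Hoxd13 had log2 fold changes of 0.25, 0.56, 0.38, 0.22 and 0.08. Hoxd10 did not overlap, with 4.68, 2.84, 4.65 and 6.17 CPM in normal adult and 6.29, 6.997, 7.01 and 6.81 at P14, yet its adjusted p was 0.11.

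Whether the members that rose at P14 were higher relative to fibroblast transcripts depended on the transcripts chosen. For every 1000 CPM of Pdgfra, Hoxa10 stood at 29.99 ± 5.882 in normal adult and 47.04 ± 6.857 at P14, Hoxa11 at 8.918 ± 1.451 and 19.44 ± 0.6693, Hoxd8 at 15.86 ± 3.283 and 34.1 ± 4.593, and Hoxb2 at 1.09 ± 0.2835 and 2.476 ± 0.9405. For every 1000 CPM of the 8 fibroblast markers together the direction was the opposite, with Hoxa10 at 0.9436 ± 0.1159 in normal adult and 0.5186 ± 0.03891 at P14, Hoxa11 at 0.2809 ± 0.02648 and 0.2167 ± 0.02427, Hoxd8 at 0.5089 ± 0.1344 and 0.3782 ± 0.04719, and Hoxb2 at 0.03445 ± 0.007801 and 0.02688 ± 0.008039. Hoxa10 and Hoxa11 did not overlap between the groups on that scale, and Hoxd8 and Hoxb2 did. Neither ratio was tested. The 8 markers are summed as CPM, so the most abundant of them weigh most. Their mean sum was 31821.9 in normal adult and 83035.1 at P14, of which Pdgfra made up 1014 and 917.3. The median log2 fold change of the 8 markers was 0.53. The smooth muscle sum was higher in the same P14 libraries, at 6112, 7862, 4020 and 3902 CPM against 997 to 1783 in normal adult. With the log2 of that sum as a covariate, added after the data were seen, the fold changes were 0.04 for Hoxa10, 0.86 for Hoxa11 and 1.18 for Hoxd8, none called (adjusted p = 0.99, 0.79 and 0.75). Of all 18727 genes the same fit called 0 higher and 0 lower at P14. Since the smooth muscle sum does not overlap between the groups either, it and the age cannot be told apart.

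**Figure D4:**
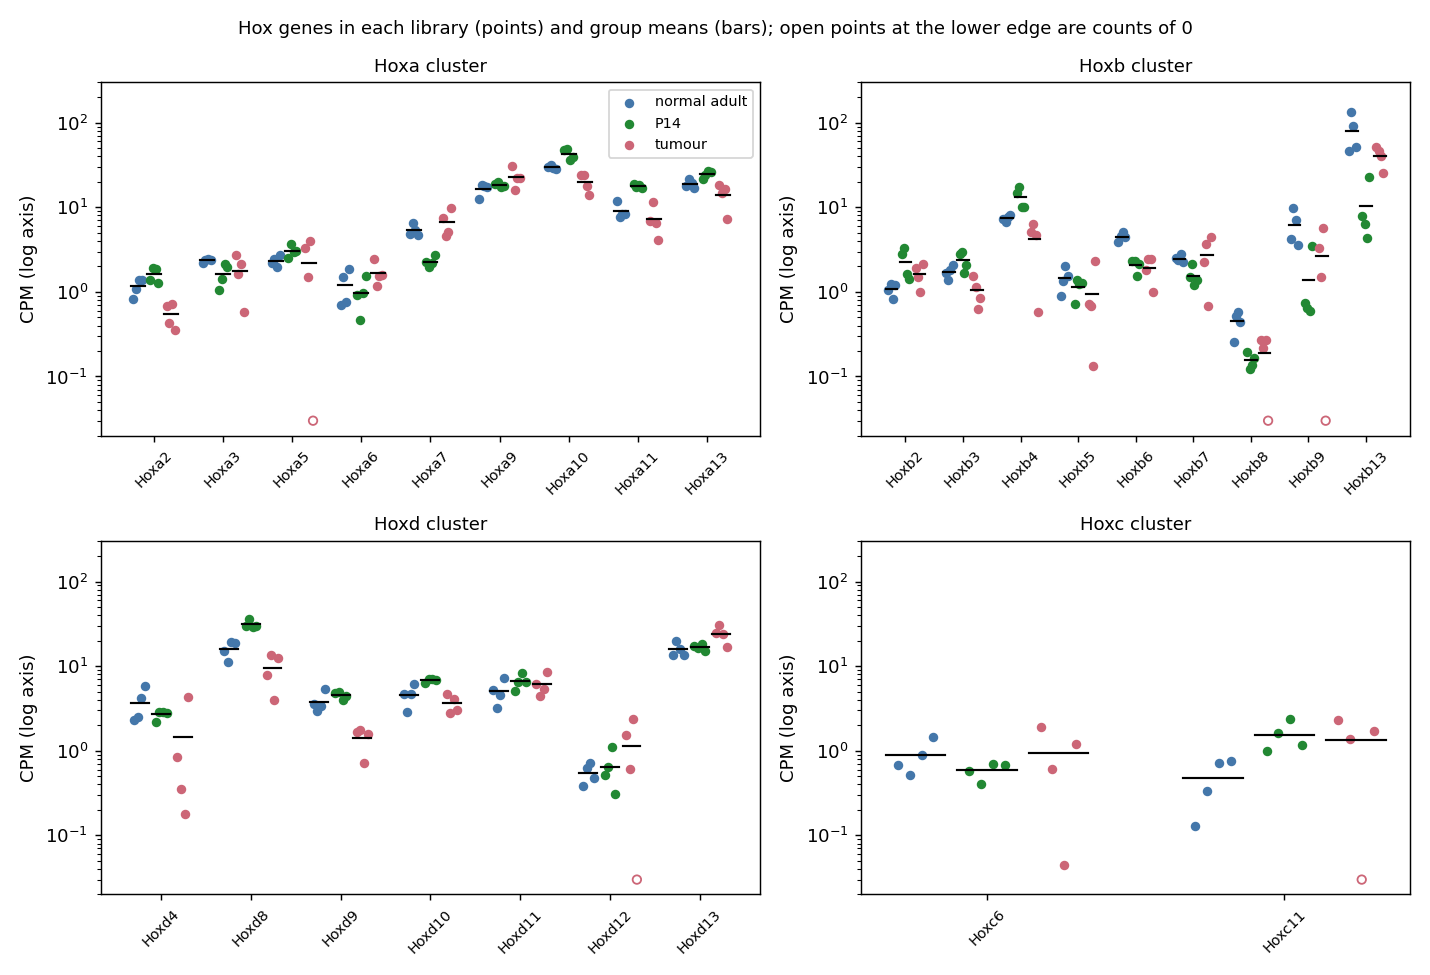
CPM of the 27 members (log axis) in each of the 12 libraries, by cluster; points are libraries, bars group means, and open points at the lower edge stand for counts of 0. Hoxa10, Hoxa11 and Hoxd8 are highest at P14, Hoxa7 and Hoxb13 are lowest there, and the tumour points spread most among weakly expressed members such as Hoxd4 and Hoxb9.

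The second comparison, tumour against normal adult, asks how tumour stroma differs from stroma of the normal colon. In tumours Hoxd13 was higher, and Hoxa2, Hoxa10, Hoxb6 and Hoxd9 were lower, while 21 members did not pass the test. The 1 higher member is 3.85% of 26, beside 10.6% of all genes called higher, and the 4 lower ones are 15.4%, beside 8.29% of all genes. The median log2 fold change was -0.37 over the members and 0.00075 over all genes. Hoxb6 and Hoxd9 alone kept their calls whichever library was left out.

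Hoxd9, a gene of the lumbar and limb region, had the largest called fall. It was 3.52, 2.99, 3.42 and 5.35 CPM in normal adult and 1.67, 1.75, 0.718 and 1.57 in tumours, where all 4 libraries lay below the lowest adult, and the log2 fold change was -1.42 (SE 0.30, adjusted p = 0.0068). Per 1000 CPM of Pdgfra it was 3.746 ± 0.618 in normal adult and 1.758 ± 0.6672 in tumours, and per 1000 CPM of the 8 fibroblast markers 0.1214 ± 0.0375 and 0.06631 ± 0.009393. With the epithelial covariate the Hoxd9 log2 fold change was -1.69 (adjusted p = 0.012), and with the squamous covariate it was -1.73 (adjusted p = 0.67). The squamous sum, 70.15 to 495.2 in normal adult and 5086 to 15105.7 in tumours, does not overlap, so it and the tumour state cannot be told apart. Of all 18727 genes the squamous fit called 0 higher and 0 lower in this comparison.

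Hoxb6 was 1.8, 2.47, 2.42 and 1.001 CPM in tumours against the adult values given above, again without overlap, with a log2 fold change of -1.21 (SE 0.29, adjusted p = 0.013). Hoxb6 was thus low both at P14 and in tumours, in comparisons that share the normal adult libraries. Hoxa10 was 24.1, 24.2, 17.7 and 14.2 CPM in tumours, all below normal adult, with tumour replicate 8 lowest, and fell by 0.57 on the log2 scale (adjusted p = 0.042). That call ended in 9 of 12 left-out fits. Per 1000 CPM of Pdgfra Hoxa10 was 26.88 ± 12.75 in tumours and 29.99 ± 5.882 in normal adult. The tumour libraries ran from 12.99 to 39.96, on both sides of the normal adult range of 24.67 to 37.78. Hoxa2, a hindbrain gene, was 0.833, 1.07, 1.37 and 1.397 CPM in normal adult and 0.675, 0.429, 0.718 and 0.357 in tumours, all tumours being lower, at -1.08 (SE 0.34, adjusted p = 0.045), and 11 of 12 left-out libraries ended the call (adjusted p up to 0.12).

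Hoxd13, a hindgut, genital and digit gene at the tailward end of its cluster, was 13.7, 19.8, 16.1 and 13.6 CPM in normal adult and 24.9, 30.5, 23.8 and 17.01 in tumours. Tumour replicates 1, 2 and 6 lay above all adults and replicate 8 within their range. Hoxd13 rose by 0.61 (SE 0.19, adjusted p = 0.04), a call ended by 8 of 12 left-out libraries (adjusted p up to 0.11) and by scaling with library totals alone. Its cluster partners divided, with log2 fold changes of -0.34 for Hoxd10, 0.27 for Hoxd11 and 1.05 for Hoxd12, none called. Hoxb13 in tumours was 51.4, 45.99, 40.5 and 25.3 CPM, overlapping normal adult, and at -0.98 (SE 0.48, adjusted p = 0.18) did not pass the test.

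Hoxd4 depended on 1 library. It was 2.31, 2.51, 4.18 and 5.79 CPM in normal adult and 0.855, 0.358, 0.179 and 4.36 in tumours, so that tumour replicate 8 lay within the adult range and the other tumours below it. The log2 fold change was -1.43 (SE 0.73, adjusted p = 0.2) with all libraries and -2.99 (adjusted p = 0.0026) without tumour replicate 8. Hoxd4 shares 52.31% of its exon bases with Hoxd3 and Gm28230 on its own strand, so its counts are uncertain. Hoxc6 and Hoxc11, the 2 Hoxc members, overlapped between normal adult and tumours, at 1.89, 0.609, 0.0449 and 1.22 and 2.29, 1.396, 0 and 1.72 CPM in tumours, with log2 fold changes of 0.06 and 1.47. At P14 Hoxc11 was 0.989, 1.61, 2.38 and 1.17 CPM against 0.128, 0.332, 0.721 and 0.7497 in normal adult, without overlap but not called (1.66 (SE 0.83, adjusted p = 0.15)).

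The third comparison, tumour against P14, sets the stroma of tumours beside that of normal growth and shares its libraries with the other two. Relative to P14, tumours had lower Hoxa2, Hoxa10, Hoxa11, Hoxa13, Hoxb3, Hoxb4, Hoxd8, Hoxd9 and Hoxd10, and higher Hoxa7, Hoxb13 and Hoxd13. The 9 lower members are 34.6% of 26, beside 17.3% of all genes called lower, and the 3 higher ones are 11.5%, beside 19.7% of all genes. Their median log2 fold change was -0.25, against 0.048 over all genes. Apart from Hoxd13, each of these calls held with any single library left out.

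The 4 Hoxa members that fell lie at both ends of that cluster. Hoxa11 at 6.84, 11.7, 6.504 and 4.15 CPM in tumours was below every P14 library, at -1.28 (SE 0.27, adjusted p = 0.0029), and Hoxa10 differed by -1.10 (SE 0.18, adjusted p = 0.00062). Hoxa13 was 18.2, 14.6, 16.4 and 7.22 CPM in tumours, lowest in replicate 8 and below P14 throughout, at -0.80 (SE 0.23, adjusted p = 0.017). Hoxa2 stood at -1.54 (SE 0.34, adjusted p = 0.0041), its P14 CPM having been 1.37, 1.92, 1.87 and 1.28. Between them Hoxa7 went the other way: at 7.38, 4.62, 5.11 and 9.79 CPM in tumours it exceeded every P14 library and rose by 1.56 (SE 0.27, adjusted p = 0.00081).

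In the Hoxd cluster Hoxd8, Hoxd9 and Hoxd10 fell and Hoxd13 rose. Hoxd8 was 7.78, 13.6, 3.99 and 12.5 CPM in tumours against 29.1 to 36.38 at P14, the largest fall among the members in this comparison, at -1.72 (SE 0.32, adjusted p = 0.0014). Hoxd9, 4.84, 4.92, 4.01 and 4.44 CPM at P14, fell by 1.67 on the log2 scale (adjusted p = 0.0013), and Hoxd10, 4.63, 2.79, 4.08 and 3.002 CPM in tumours, by 0.90 (adjusted p = 0.016). Hoxd13 was 17.3, 16.4, 18.2 and 15.04 CPM at P14 and overlapped, and its rise of 0.53 (SE 0.19, adjusted p = 0.044) was lost in 10 of 12 left-out fits. Hoxa10, Hoxd8 and Hoxd9 were the members still lower with the epithelial covariate, at -0.97, -1.33 and -1.36 (adjusted p = 0.026, 0.040 and 0.043). Per 1000 CPM of the 8 fibroblast markers these members were not lower in tumours: Hoxa10 was 1.008 ± 0.3954, Hoxd8 0.428 ± 0.1229 and Hoxd9 0.06631 ± 0.009393 there, against 0.5186, 0.3782 and 0.05512 at P14. That ratio was not tested, and the most abundant markers weigh most in its sum. The mean sum was 83035.1 at P14 and 21846.9 in tumours, while the median log2 fold change of the 8 markers was -1.005.

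In the Hoxb cluster Hoxb4, 5.13, 6.37, 4.67 and 0.572 CPM in tumours, differed from P14 by -1.63 (SE 0.47, adjusted p = 0.016), replicate 8 being far the lowest tumour, and Hoxb3, 2.77, 2.97, 1.69 and 2.09 CPM at P14 and 1.53, 1.15, 0.628 and 0.858 in tumours, by -1.19 (SE 0.33, adjusted p = 0.014). Hoxb13 rose by 1.99 (SE 0.50, adjusted p = 0.0079), all 4 tumours being above the highest P14 library. The epithelial sum was again higher in the same libraries in 3 of 4 tumours, replicate 2 at 1111 lying below P14 replicate 4 at 2033. With the epithelial covariate the Hoxb13 log2 fold change was 1.11 (adjusted p = 0.12).

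**Figure D5:**
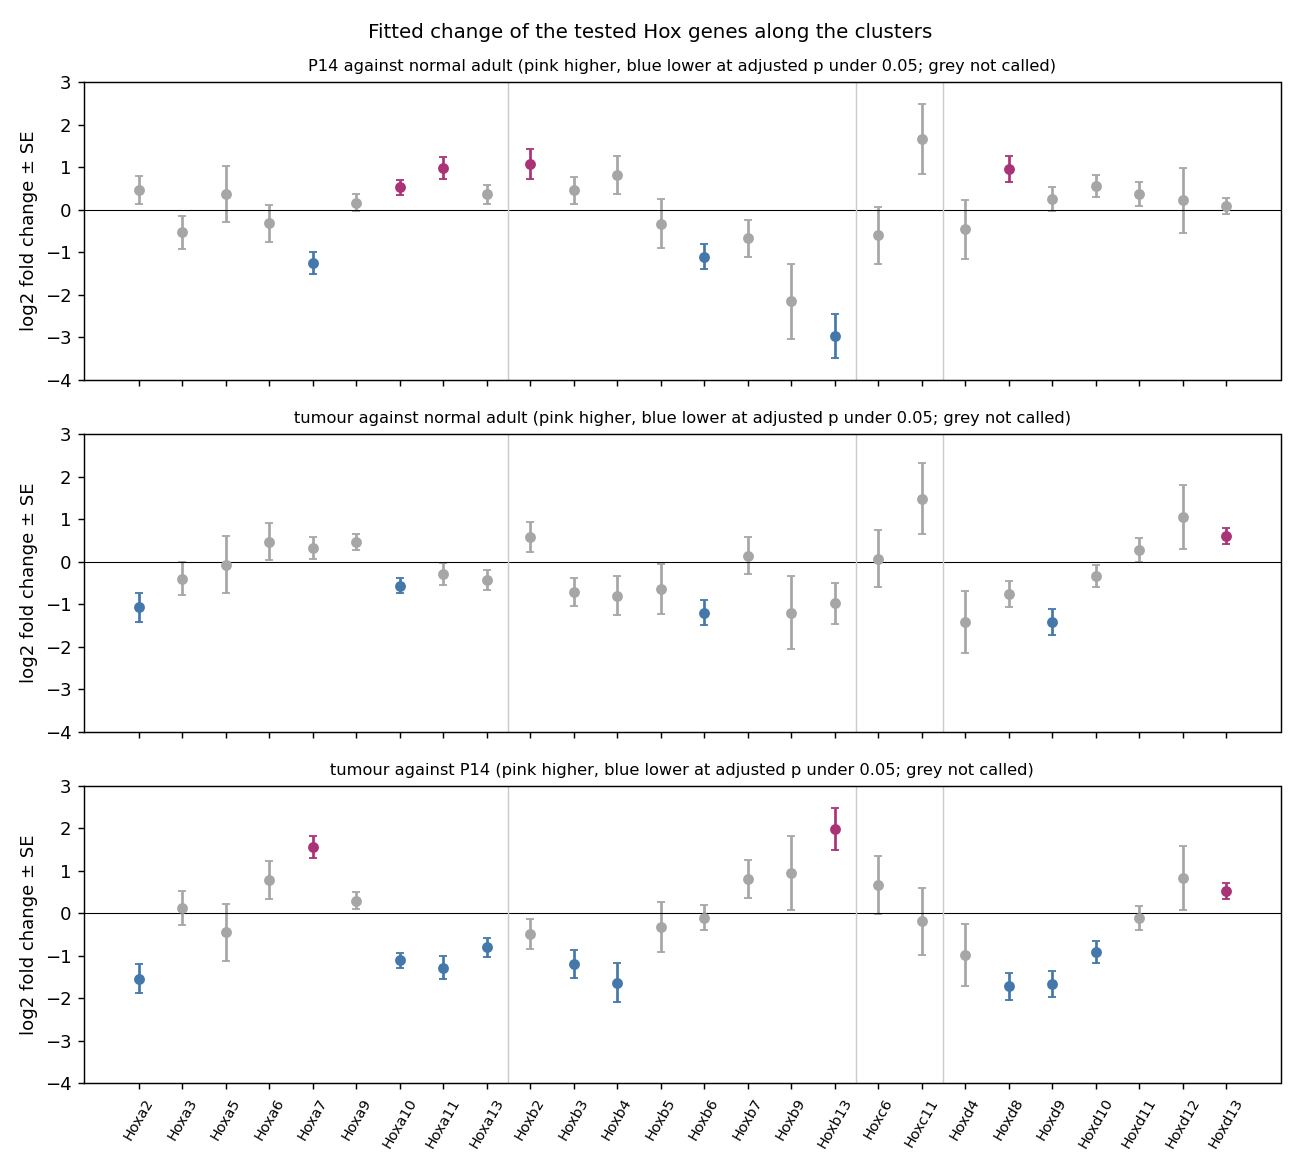
Log2 fold change with its SE for the 26 tested members in genomic cluster order (Hoxa, Hoxb, Hoxc, Hoxd) in the 3 comparisons; pink marks members called higher, blue called lower and grey not called. P14 differs from both adult groups in opposite directions at Hoxa7 and Hoxb13 on one side and Hoxa10, Hoxa11 and Hoxd8 on the other.

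The remaining members gave no call in any comparison. Hoxa3, Hoxa5, Hoxa6, Hoxa9, Hoxb5, Hoxb7, Hoxb9, Hoxc6, Hoxc11, Hoxd4, Hoxd11 and Hoxd12 had adjusted p-values of at least 0.083. Hoxa9, per kb one of the higher of them, was 31.1, 15.9, 21.98 and 21.9 CPM in tumours and differed from normal adult by 0.46 (SE 0.20, adjusted p = 0.13). Hoxd11 was 5.25, 3.21, 4.54 and 7.22, 5.08, 6.53, 8.36 and 6.42 and 6.07, 4.44, 5.34 and 8.65 CPM in normal adult, P14 and tumours, groups that overlap throughout. Hoxa5 was at 0 in tumour replicate 8 and 2.34 ± 0.353 CPM in normal adult, and Hoxb9 and Hoxd12 were at 0 there too, where 3 counts would be 0.2144 CPM. Hoxb7 at 1.51, 2.14, 1.21 and 1.37 CPM at P14 was below every normal adult library (2.499, 2.36, 2.78 and 2.28), with a log2 fold change of -0.67 (SE 0.44, adjusted p = 0.27), and Hoxa3 likewise (-0.53 (SE 0.39, adjusted p = 0.33)).

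Noncoding RNAs of the clusters came from a list of 18, of which 8 had a row and were tested. At P14 Hoxb5os rose and Hottip and Mir196a-1 fell, beside 14.9% of all genes called higher and 16% lower. In tumours against normal adult Hottip, Hoxaas3 and Hoxd3os1 fell, beside 8.29% of all genes called lower. In tumours against P14 Hoxb5os and Hoxd3os1 fell, beside 17.3%. The list's median log2 fold change was 0.06 at P14 and -0.86 in tumours against normal adult, beside -0.0019 and 0.00075 over all genes. It was -0.57 in tumours against P14, beside 0.048. Hottip, a long RNA made beyond Hoxa13 that is known to act on the tailward Hoxa genes, was 3.75, 8.11, 8.47 and 4.77 CPM in normal adult, 0.742, 0.805, 0.864 and 1.79 at P14 and 1.03, 0.501, 2.69 and 0.5003 in tumours. It was below normal adult in all 8 other libraries, at -2.57 (SE 0.54, adjusted p = 0.004) and -2.39 (SE 0.54, adjusted p = 0.0096), although Hoxa13 beside it did not pass in either comparison. Per 1000 CPM of epithelial markers Hottip was 0.7041 to 0.9431 in normal adult, 0.8787 to 2.889 at P14 and 0.1803 to 0.6358 in tumours.

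Hoxb5os, on the opposite strand across Hoxb5 and Hoxb6, was 1.57, 1.401, 1.73 and 1.704 CPM in normal adult and 4.95, 5.57, 2.97 and 2.4 at P14, above every adult, and rose by 1.31 (SE 0.30, adjusted p = 0.0067), whereas Hoxb6 fell. Hoxd3os1 was 1.09, 1.25, 2.85 and 3.54 CPM in normal adult and 0.8998, 0.859, 0.135 and 0.5003 in tumours, with a log2 fold change of -1.84 (SE 0.52, adjusted p = 0.026). Mir196a-1 lies between Hoxb9 and Hoxb13 and its counts are reads over the hairpin locus, not of the mature microRNA. Its P14 log2 fold change was -2.75 (SE 0.72, adjusted p = 0.013), at 0.769, 1.07, 0.901 and 0.716 CPM in normal adult and 0.0824, 0.03096, 0.0691 and 0.307 at P14, values of few counts. The mature product is printed because Hox transcripts are its known targets, with the seed, bases 2 to 8, in capitals, at chr11:96265187-96265208 on the plus strand; miR-196b-5p from the Hoxa cluster shares the seed.
miR-196a-5p: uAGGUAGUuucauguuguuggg
miR-196b-5p: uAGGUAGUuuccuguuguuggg

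Some genes near Hoxb13 were also lower at P14. They were chosen after their values were seen. Gm53, a long noncoding gene at chr11:96251105-96264868 between Hoxb13 and Hoxb9, was 14.9, 28.2, 19.8 and 13.3 CPM in normal adult, 2.01, 1.703, 1.83 and 8.06 at P14 and 15.5, 8.45, 16.2 and 9.08 in tumours, with a P14 log2 fold change of -2.48 (SE 0.50, adjusted p = 0.0032). Ttll6, a tubulin glutamylase gene at chr11:96133786-96165451, just outside the cluster, had -3.28 (SE 0.60, adjusted p = 0.002). Others nearby did not pass, among them the pseudogene Gm11539 between Hoxb13 and Gm53 (-0.78, adjusted p = 0.18), Hoxb9, and, further out, Atp5g1 (-0.60), Ube2z (0.00) and Snf8 (-0.41). Gm53 had 2.054 to 2.792 CPM per 1000 CPM of epithelial markers in normal adult and 3.63 to 6.124 at P14.

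Beside the other cluster ends, Evx1 and Evx2, even-skipped homeobox genes next to Hoxa13 and Hoxd13, were both called higher in tumours than in normal adult. Of all genes 10.6% were called higher in that comparison. DESeq2 also called 2 of the 2 Evx genes higher, but limma voom called 0. Evx1 was 0.256, 0.295, 0.252 and 0.136 CPM in normal adult, 0.495, 0.124, 0.588 and 0.921 at P14 and 2.48, 0.465, 10.1 and 2.29 in tumours, where replicate 6 was highest, and the log2 fold change was 4.01 (SE 0.85, adjusted p = 0.0065). It ran from 2.85 to 4.41 over the left-out fits. Evx2 was 1.54, 1.696, 1.59 and 1.23, 4.09, 2.69, 3.63 and 2.65 and 2.97, 3.83, 1.84 and 6.22 CPM and rose in tumours by 1.29 (SE 0.35, adjusted p = 0.022) and at P14 by 1.11 (SE 0.34, adjusted p = 0.027). Both tumour and P14 libraries lay above all adults for Evx2, though 3 and 6 of 12 left-out fits ended those calls.

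Of 8 TALE cofactors tested, 3 were higher at P14 (Pbx3, Meis2 and Pknox2) and the other 5 did not pass, with a median log2 fold change of 0.58, beside 14.9% of all genes called higher. In tumours Meis2 alone passed against normal adult, higher, and against P14 Pbx2, Pbx3, Pbx4, Meis3 and Pknox2 were lower and the other 3 did not pass (median -0.71), beside 17.3% of all genes called lower. The tumour call of Meis2 ended without normal adult replicate 3 or 5 (adjusted p up to 0.067), and against P14 the call of Pbx4 ended in 10 and that of Pbx2 in 4 of 12 left-out fits. Pbx3, which forms complexes with Hox proteins on DNA, was 15.6, 13.2, 13.3 and 17.5 CPM in normal adult, 58.8, 56.3, 39.8 and 36.8 at P14 and 15.6, 14.9, 12.8 and 12.8 in tumours. P14 stood above both other groups, which overlapped, and the log2 fold change was 1.69 (SE 0.18, adjusted p = 0.00013) against normal adult and -1.77 for tumour against P14. Meis2 was 54.7, 38.2, 51.8 and 59.5, 101, 117, 85.95 and 83.2 and 71.7, 103, 67.9 and 78.2 CPM in the same order, lowest in normal adult, with 0.92 (SE 0.18, adjusted p = 0.0027) at P14 and 0.65 (SE 0.18, adjusted p = 0.024) in tumours.

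Inputs known to set Hox expression in the embryo were a list of 13 caudal, Gdf11 and retinoic acid genes, of which 10 were tested. At P14 4 were higher and 3 lower, in tumours against normal adult 5 and 3, and in tumours against P14 3 and 1. Over all genes, as given above, 14.9% were called higher and 16% lower at P14, 10.6% and 8.29% in tumours against normal adult, and 19.7% and 17.3% in tumours against P14. Cdx2, a caudal factor that is also one of the 11 epithelial markers, was 16.4, 28.9, 29.6 and 16.9 CPM in normal adult, 2.5, 2.42, 1.24 and 8.4 at P14 and 2.56, 0.501, 2.33 and 1.29 in tumours, at -2.65 (SE 0.58, adjusted p = 0.0047) and -3.78 (SE 0.62, adjusted p = 0.0015). Gdf11, a ligand that promotes tailward Hox genes, rose at P14 by 1.77 (SE 0.24, adjusted p = 0.00049), from 9.03, 7.15, 7.97 and 9.303 to 29.2, 27.3, 28.5 and 29.3 CPM, and Rarb, a retinoic acid receptor and target, by 1.36 (SE 0.19, adjusted p = 0.00047).

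Retinoic acid genes went both ways in tumours. Aldh1a2, which makes retinoic acid in mesenchyme, was 28.99, 21.1, 23.1 and 28.3 CPM in normal adult, 62.5, 48.3, 76.6 and 55.2 at P14 and 5.17, 9.95, 3.23 and 4.65 in tumours, the 3 groups not overlapping. It rose at P14 by 1.26 (SE 0.28, adjusted p = 0.0057) and fell in tumours by 2.13 on the log2 scale (adjusted p = 0.00053). Cyp26b1, which breaks retinoic acid down, was 2.85, 3.72, 2.704 and 4.498 CPM in normal adult and 76.8, 11.5, 17.99 and 46.7 in tumours, a rise of 3.47 (SE 0.50, adjusted p = 0.00071). Aldh1a3, another enzyme that makes retinoic acid, rose in tumours by 1.62 (SE 0.25, adjusted p = 0.0011), and Rarb rose there by 1.42 (SE 0.19, adjusted p = 0.0004).

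Polycomb proteins keep Hox genes silent outside their domains. Of 22 tested Polycomb genes 9 were higher and 2 lower at P14 (median 0.33), 1 higher and 1 lower in tumours against normal adult (0.05), and 2 higher and 6 lower in tumours against P14 (-0.21). Beside these, 14.9% of all genes were called higher and 16% lower at P14, 10.6% and 8.29% in tumours against normal adult, and 19.7% and 17.3% in tumours against P14. Rnf2, the ubiquitin ligase subunit of the first complex, was 42.7, 50.6, 48.7 and 47.1 CPM in normal adult, 118, 112, 99.8 and 83.7 at P14 and 48.7, 55.3, 46.9 and 38.7 in tumours, highest in all 4 P14 libraries, and rose by 1.13 (SE 0.14, adjusted p = 0.00034). Cbx7, a chromodomain subunit, was 27.8, 23.3, 22.9 and 34.8 CPM in normal adult and 7.09, 9.23, 13.03 and 9.94 at P14, lower in every library, at -1.47 (SE 0.20, adjusted p = 0.00049). Phf19, which helps recruit the second complex, rose by 1.47 (SE 0.24, adjusted p = 0.0012). Of 10 trithorax and demethylase genes, which oppose Polycomb, Men1 was higher at P14 (0.54) and Kmt2b in tumours against P14 (0.88). In tumours against normal adult 0 of the 10 passed edgeR's test, 1 had an unadjusted p under 0.05, and 0 passed with DESeq2 or limma voom.

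Other regional transcription factors of the gut mesenchyme came from a list of 24, of which 15 were tested: 6 were higher and 2 lower at P14, 2 and 2 in tumours against normal adult, and 4 and 7 in tumours against P14. The shares of all genes called were those given beside the Polycomb genes, 14.9% higher and 16% lower at P14 and 10.6% and 8.29% in tumours against normal adult. Pitx1, a hindlimb and hindgut factor, was 36.7, 23.4, 22.4 and 31.8 CPM in normal adult, 67.6, 61.1, 78.1 and 49.98 at P14 and 62.04, 70.8, 38.98 and 67.5 in tumours, lowest in normal adult, with 1.17 (SE 0.22, adjusted p = 0.0024) and 1.06 (SE 0.22, adjusted p = 0.0059). Foxf1, a Hedgehog target of gut mesenchyme, rose at P14 by 1.18 (SE 0.19, adjusted p = 0.0011) and fell in tumours by 0.66 on the log2 scale (adjusted p = 0.03). Hand2, a mesodermal factor, was 1.51, 1.36, 1.33 and 2.49 CPM in normal adult and 7.31, 10.8, 5.01 and 5.302 at P14, above every adult, at 2.08 (SE 0.32, adjusted p = 0.00088).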

How the data were processed

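Polyadenylated RNA of sorted colonic stroma was read as stranded, single-end libraries, per the labels' protocols, and the authors deposited raw read counts per gene for 12 libraries, 4 per group. The submitters' processing notes name STAR 2.4.2a, edgeR 3.28.0 and GRCm38 without their roles; no source used here gives the counting program or its strand setting. Symbols came from GENCODE M21 for 19012 of 19049 Ensembl IDs. From the counts, genes were filtered with filterByExpr (minimum count 10, minimum total 15), leaving 18727, scaled by TMM and tested with edgeR 4.0.16 (quasi-likelihood F test, all 12 libraries, Benjamini-Hochberg over all genes tested, R 4.3.3); DESeq2 1.42.0 and limma voom 3.58.1 were alternatives. The procedure was tested on simulated data. The SE is the log2 fold change divided by the root of the F statistic. Exon length is the union of a gene's exons. The biological coefficient of variation was 0.333, and the totals, 15449444 to 38799033 counts, limit precision for members of few counts. Same-numbered libraries correlated over 0.1 in 3 of 6 pairs, all of them pairs of replicate 2 (r = 0.265 to 0.408). The labels pair no libraries, so the main fit treated the numbers in the titles as names. A fit with the number as a block is given below. No pair of libraries within a group agreed within sampling noise.

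All 27 members are named. Values in every library are given for members called in at least 1 comparison with a mean of at least 1 CPM, and of the other lists for up to 3 genes per comparison by smallest adjusted p; genes named beyond this were chosen after their values were seen. Some genes of the lists are not reported here. The members and the lists were chosen with earlier results of these data known. Fits with marker sums as covariates or without the libraries in doubt were added after the data were seen. Promoter and microRNA sequences are from RefSeq, GRCm38.p6.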

Additional observations from a re-analysis of the deposited data

Results flagged for a closer look

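In 81 groups of 4 values (27 members in 3 groups) a value was looked at again where its gap to the nearest library exceeded 0.829 of the group's range, which chance gives in about 1 group in 20; 5 did. Hoxb9 in P14 replicate 4 was 3.488 CPM, the other P14 libraries being 0.5875 to 0.7418, and that library also had the highest epithelial sum of its group. Hoxd4 in tumour replicate 8 was 4.36 CPM, the other tumours being 0.1794 to 0.8548, in the library with the most genes at 0. Hoxd4 in P14 replicate 1 was 2.198 CPM, below the other P14 libraries at 2.791 to 2.91. Hoxa11 in normal adult replicate 2 was 11.95 CPM, the others being 7.632 to 8.246. Hoxd8 in P14 replicate 2 was 36.38 CPM, the others being 29.1 to 29.64. The part of the epithelial sum, or of the zeros, in the first 2 values was not tested.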

How the results depend on the processing

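All 24 member fold changes called kept their sign under the 9 other planned settings and with any 1 library left out. The calls stayed in number with RLE and upper quartile factors, with no filter and with a stricter one; DESeq2 kept all 24 and added Hoxb9, lower at P14. With limma voom and with library totals alone 22 of 24 were kept, and totals alone left 0 higher in tumours against normal adult. Fitting only the 2 groups compared gave 7 higher and 5 lower at P14, and 0 and 2 in tumours against normal adult. At an adjusted p under 0.01, 0 were higher at P14, 0 higher and 1 lower in tumours against normal adult, and 5 lower in tumours against P14.

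With the title number as a replicate block, 0 were higher at P14, and 0 were higher and 0 lower in tumours against normal adult, beside 3 higher and 7 lower in tumours against P14. Of the 24 calls 10 were kept. Over all genes that fit called 1170 higher and 1783 lower at P14. It called 486 and 332 in tumours against normal adult, and 1994 and 1746 against P14. The block spends residual degrees of freedom and the labels pair no libraries. Leaving out 1 library gave 1 to 5 higher and 3 to 5 lower at P14, 0 to 1 and 2 to 4 in tumours against normal adult, and 2 to 3 and 9 to 10 in tumours against P14. The low P14 count of 1 arose without normal adult replicate 2, 3 or 5 or P14 replicate 1 or 2, and the 5 lower without tumour replicate 8, through Hoxb8 and Hoxb9. Without both tumour 8 and P14 4, 5 were lower at P14.

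With the epithelial sum as covariate, 0 were higher and 0 lower at P14, 0 and 1 in tumours against normal adult, and 0 and 3 against P14. Over all 18727 genes that fit called 17 and 21, 1623 and 1228, and 1189 and 1039 in the same order. With the smooth muscle sum, 0 and 0 were called at P14 and 0 and 0 in tumours against P14, where Hoxd10 turned to 0.025, while all 5 calls in tumours against normal adult were kept. Over all genes that fit called 0 and 0 at P14 and 25 and 15 in tumours against P14. In tumours against normal adult it called 1834 and 1442. With the squamous sum, 0 were higher at P14 and Hoxa7, Hoxb6 and Hoxb13 were still called lower. In each tumour comparison 0 and 0 passed, and in tumours against P14 Hoxa11 turned to 0.31, Hoxb4 to 0.43 and Hoxb13 to -0.14. Over all genes that fit called 1442 and 1825 at P14. It called 0 and 0 in tumours against normal adult and 1 and 0 in tumours against P14. Without the libraries in which Ddx3y exceeded Xist, 0 and 0 were called at P14 and in tumours against normal adult, and 0 and 3 against P14, from 8 libraries. Over all genes that fit called 18 and 5, 369 and 275, and 978 and 1021 in the same order. The smooth muscle sum overlaps between normal adult and tumours, the squamous sum between normal adult and P14, and the epithelial sum between P14 and tumours. In the other comparisons these sums do not overlap, and most of those fits leave little to separate them from the groups. The epithelial fit of tumours against normal adult differs, as it still called 1623 genes higher and 1228 lower, beside 0 and 1 of the members. The cause of each loss was not tested. Members of few counts, such as Hoxb8 and Hoxc11, are limited by depth.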
